A study of Caenorhabditis elegans with 146 samples.

Results

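The X chromosome of Caenorhabditis elegans carries 6021 of the 46927 genes in the count table, as placed by the WBcel235 annotation, and 40862 genes lie on the autosomes. Membership rested on position alone and used no measured value. Of the X genes, 2730 code for protein, and most of the others are short non-coding RNA genes, with 2520 annotated as ncRNA, 276 as tRNA, 178 as pseudogenes, 162 as piRNA and 74 as miRNA. Their RNA was followed in gonads of gravid, well-fed hermaphrodites of strain AZ212, which carries a histone H2B::GFP transgene driven in the germ line by pie-1. Single pieces or cells were sequenced from S1 (the distal proliferative zone), S2 (pachytene), S3 (the loop region, diplotene), S4 (early diakinesis), F3, F2 and F1 (the 3 most proximal oocytes, with F1 next to the spermatheca) and P0 (the zygote, taken when its pronuclei met). All groups came from this strain with no treatment, and the study harvested sheath cells of the somatic gonad along with segments and oocytes. The 104 libraries marked as used in the deposited quality table were compared, 19 of S1, 17 of S2, 17 of S3, 11 of S4, 6 of F3, 13 of F2, 15 of F1 and 6 of P0, and 82 of them belonged to batch A and 22 to batch B, which the study prepared mainly with different amplification protocols.

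The X chromosome has a particular place in this tissue. In the worm's mitotic and early meiotic germ cells most X genes are held silent by chromatin marks, among them methylation of histone H3 set by the MES proteins, and X becomes active during late oogenesis. Most genes with general germ line functions lie on the autosomes, whereas several genes that control sex and X dosage, and the MEG proteins that organise germ granules in the early embryo, are encoded on X.

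Sequencing gave between 1260459 and 73253972 counts per library on nuclear genes, with medians of 2762714 in S1, 3310818 in F1 and 5725676 in P0. Each library is 1 gonad piece, oocyte or zygote, and the libraries of a stage carry different worm names, except that 3 of the 6 P0 libraries are from worms labelled as unknown. The 6 germ line markers, pgl-1, pgl-3, glh-1, gld-1, oma-1 and oma-2, were counted in every library. None of the 44 meiosis genes listed, none of the 31 genes named msp and 2 of the 76 ribosomal protein genes lie on X, so X genes are seen against a germ line transcriptome that is encoded mostly elsewhere. In these bulk samples, fewer cells of a type and less RNA per cell cannot be told apart.

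Detection was counted as a transcripts-per-million value (TPM, which corrects for transcript length) of at least 1 among protein-coding genes. In S1 a median of 3.93% of X genes was detected, with 0.917% in the lowest and 9.50% in the highest library. In S2 the lowest, median and highest were 0.99%, 4.70% and 13.7%. In S3 they were 8.29%, 27.2% and 34.7%, and 16 of the 17 S3 libraries had more X genes of all types detected than any S2 library. The median stayed at 31.7% in S4, 28.9% in F3, 32.4% in F2 and 33.7% in F1, and was 26.0% in P0, with the P0 libraries between 15.8% and 31.7%. The autosomal medians ran within a narrower band over the same stages, at 32%, 32.4%, 39.5%, 40.3%, 38.9%, 39.6%, 40.0% and 36.3% in S1, S2, S3, S4, F3, F2, F1 and P0. The gap between X and the autosomes was therefore wide in S1 and S2 and much smaller at every later stage.

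**Figure D1:**
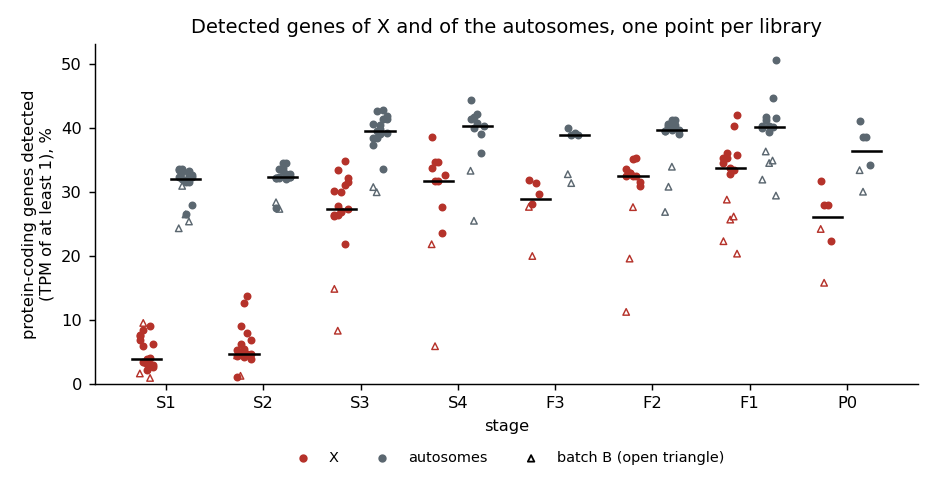
Percent of protein-coding genes with a TPM of at least 1 in each used library (filled circles batch A, open triangles batch B, bar the median), for X beside the autosomes at each stage. X medians lie at 3.93% in S1 and 4.70% in S2 and between 26.0% and 33.7% from S3 onwards, while autosomal medians lie between 32% and 40.3%.

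The S2 to S3 step was seen inside worms and inside both batches. In 9 worms with both segments, S3 had more X genes of all types detected than S2 in 9 of 9, by 478 to 864 genes, and the mean difference over all libraries was 590.2 genes (pooled SD 154). The batch medians for X protein-coding genes were 27.7% in S3 and 5.32% in S2 in batch A, and 11.6% in S3 and 2.84% in S2 in batch B, which holds 2 libraries of each. Batch B libraries thus held fewer X genes at both stages, with the same direction. After each library was thinned to 1260459 reads, the median number of X genes with a read was 999 in S3 and 397 in S2. The share of all genes with at least 1 count also moved with this step, with a median of 21.1% in S3 and 16% in S2, and it was a covariate in the tests as reported.

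Read by gene rather than by library, 969 X protein-coding genes reached a median TPM of 1 in at least 1 stage. S3 was the first such stage for 649 of them (67.0%), and S1 for 63 (6.50%). Among 7215 autosomal genes, S3 was the first stage for 15.6% and S1 for 71.8%. Only 21 X genes (2.17%) were detected by this measure at all 8 stages, against 68.3% of autosomal genes. The 21 include pdi-2 and pdi-6, which encode protein disulfide isomerases, hsp-3, which encodes a chaperone of the endoplasmic reticulum, and rpl-11.2 and rpl-25.1, the 2 ribosomal protein genes on X. Their levels were far from constant, since pdi-2 had a median TPM of 789 in S4 and 7.94 in S1, and hsp-3 of 301 in S4 and 2.04 in S1. The 799 X genes detected in S4 had a median of 13.8 TPM, against a median of 2.96 TPM over the 63 detected in S1. pdi-2, pdi-6 and hsp-3 were named after their values were seen.

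The share of all counts that fell on X genes showed the same stages with more spread. Its lowest, median and highest library values were 0.0374%, 1.78% and 3.00% in S1 and 0.0696%, 1.89% and 6.00% in S2. They were 0.508%, 4.08% and 9.36% in S3, 0.553%, 5.61% and 7.77% in S4, 3.6%, 5.57% and 7.01% in F3 and 2.63%, 6.19% and 7.71% in F2. F1 stood highest, at 2.55%, 9.11% and 23.3%, and P0 had 2.00%, 4.54% and 5.66%. S3 averaged 4.25% ± 2.06 (SD, n = 17) and S2 2.04% ± 1.34 (SD, n = 17), and the value was higher in S3 in 8 of 9 worms with both. The medians were 4.24% in S3 and 1.90% in S2 within batch A, and 0.783% in S3 and 0.134% in S2 within batch B. As a share of TPM, which weights short genes more, X averaged 8.89% in S3 and 7.99% in S2 over all libraries, and was higher in S3 in 2 of the 9 worms. F1 and F2 overlapped, with 10 of 15 F1 libraries above every F2 library, and P0 and F1 overlapped as well.

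Very short genes made up much of the X counts in the distal gonad. ZK380.6, with 81 nt of exon, alone held 0.529% of counts on average over the libraries, and F23A7.8, with 204 nt, held 0.158%. Leaving out genes with under 250 nt of exon, which was chosen after seeing the data, gave 0.0259%, 0.211% and 0.916% in S1 and 0.0473%, 0.327% and 0.854% in S2. S3 then had 0.43%, 3.02% and 5.62%, so that 16 of 17 S3 libraries lay above every S2 library, and S3 was higher in 9 of 9 worms. Per gene, the mean TPM of an X protein-coding gene over 250 nt was 0.00864 of that of an autosomal gene in S1 and 0.0134 in S2. That ratio was 0.122 in S3, 0.244 in S4, 0.226 in F3, 0.309 in F2, 0.711 in F1 and 0.204 in P0, each as a median over libraries. As a ratio of means it is weighted by very abundant genes, such as ZC373.2 and ule-5 with median TPM values of 14502 and 10800 in F1. Over X protein-coding genes with a median TPM of at least 1, the median was 13.8 in S4, 11.6 in F2, 9.80 in F1 and 14.7 in P0.

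**Figure D2:**
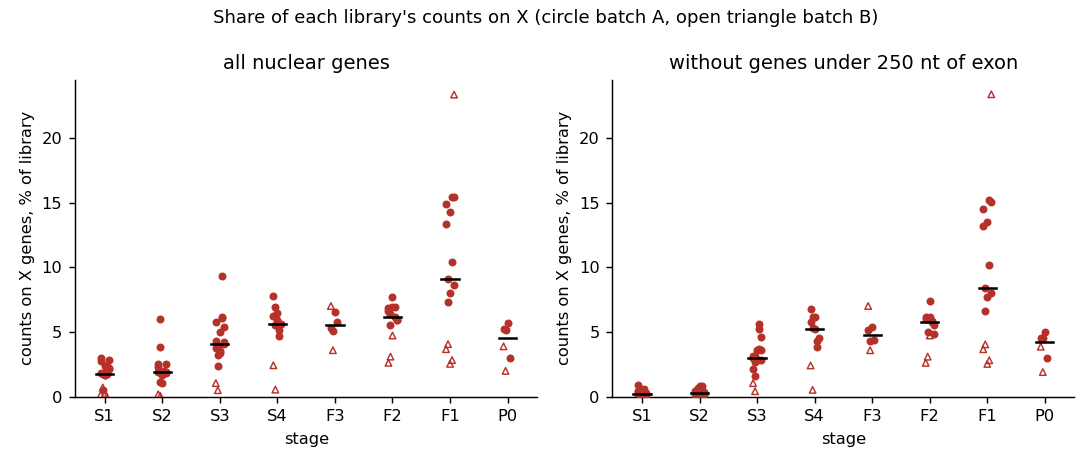
Percent of each library's nuclear counts on X genes at each stage (circles batch A, open triangles batch B, bar the median), with all genes at left and without genes under 250 nt of exon at right. Without the short genes the S1 and S2 medians are 0.211% and 0.327% and the S3 median is 3.02%, and F1 holds the highest median, 8.44%.

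Neighbouring stages were then compared gene by gene with edgeR's quasi-likelihood test, and genes were called where the fold change exceeded 1.5 and the p-value, adjusted by the Benjamini-Hochberg method, was under 0.05. Fold changes are the later over the earlier stage, and p-values were adjusted over all genes tested. A gene had to reach about 10 counts in enough libraries to be tested, which 1008 X genes (16.7%) did in at least 1 of the 7 neighbouring comparisons. Of these, 455 were called higher at least once, 159 lower at least once and 411 in no comparison. Comparisons that adjoin share the libraries of the stage between them. Levels of named genes are given as normalized counts, meaning raw counts scaled by size factors (median of ratios), as the lowest, the median and the highest library.

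Between S2 and S1, X genes moved in both directions and in small numbers. Of 77 tested X genes, 7 (9.09%) were higher and 7 lower in S2, beside 6.93% higher and 7.69% lower of all genes tested. The median log2 fold change was −0.32 on X and −0.04 on the autosomes. Without a low-count filter, over 1872 X genes, the X median turned to 0.23, with 190 higher and 120 lower. A block for worm, over 11 worms, gave 4 higher and 14 lower at a median of −0.54, and all mapped libraries gave 3 higher and 13 lower at a median of −0.77.

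try-14, which encodes a trypsin-like protease, had 64.1, 806 and 2576 in S2, against 0, 52.7 and 204 in S1, and was higher by 3.46 ± 0.54 on the log2 scale (adjusted p = 2.42e-05). C39D10.7 had 21, 727 and 4112 in S2 against 0, 20.9 and 209.8 in S1, a log2 change of 3.72 ± 0.72 (adjusted p = 0.000305). tbh-1, for tyramine beta-hydroxylase, an enzyme known from the gonadal sheath, had 0, 125 and 581 in S2 and 0, 4.16 and 51.7 in S1 (3.27 ± 0.81, adjusted p = 0.00412). These 3 genes were among the few X genes already abundant in S2 segments, although their lowest S2 libraries overlapped those of S1. The part of sheath cells harvested with the segments in these values was not tested. tbh-1 was added to the named genes after its values were seen, and it overlaps other genes on the chromosome, so its reads are uncertain.

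The lower genes include let-2, which encodes type IV collagen of the basement membrane. It had 0, 17 and 183 in S2 against 0, 123 and 2268 in S1, a log2 change of −3.92 ± 0.79 (adjusted p = 0.000484). cab-1, also named after its values were seen, had 0, 0 and 13.5 in S2 against 0, 94.8 and 1102 in S1 (−6.90 ± 0.93, adjusted p = 2.62e-06). Both had S1 libraries at 0, so the stages overlapped.

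Between S3 and S2 most tested X genes rose. Of 495 tested, 375 (75.8%) were called higher in S3 and 3 (0.606%) lower, beside 15.8% higher and 4.79% lower of all genes tested. On the autosomes 607 of 5722 (10.6%) were higher and 295 (5.16%) lower. The median log2 fold change was 3.63 on X and −0.00 on the autosomes, and 92.3% of tested X genes had a value above 0, against 49.6% of autosomal ones. With no low-count filter 2269 X genes were tested, with a median of 0.96, 64.5% above 0 and 32.3% higher. The filter on low counts shapes this count. Of the 495 X genes, 370 passed it only through S3, and 329 of the 375 higher genes were among them. On the autosomes 528 genes passed only through S3, and 298 of these were higher. Of the 103 that passed only with both stages together, 41 were higher and 2 lower, and of the 20 that passed in each stage alone, 4 were higher and 1 lower.

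Sheath and muscle markers were also more abundant, with a summed share of 0.00744%, 0.048% and 0.0946% in S3 and 0.000323%, 0.0116% and 0.0323% in S2. Of 5 tested, 1 (pat-10) was called higher, and act-4 had medians of 712 in S3 and 148 in S2 without a call. The part of these cells in the X calls was not tested. The count of X calls depended on the form of the test. In batch A alone 401 X genes were higher and 1 lower. With worm as a block, over the 9 worms with both segments and with the detection rate kept, 4 X genes were higher and 1 lower, at a median of 3.32 on the log2 scale. With the same block and no detection rate, a form chosen after seeing the data, 396 were higher and 10 lower. In the fit as reported, 369 of the 375 genes also had a higher median in S3. The 6 that did not were F23A7.8, ZK813.3, asp-3, ule-5, vit-2 and vit-5.

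**Figure D3:**
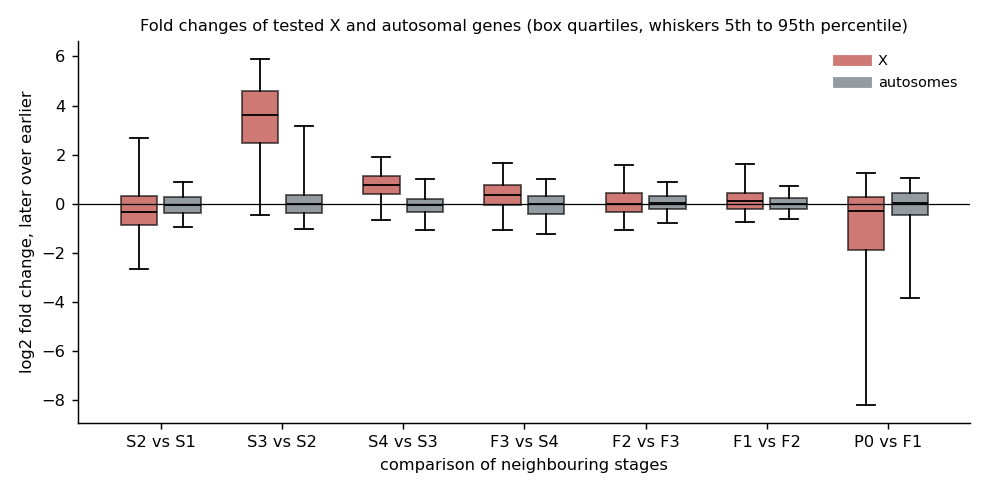
Log2 fold changes of tested genes of X and of the autosomes in the 7 comparisons of neighbouring stages, later over earlier (box quartiles with the median, whiskers from the 5th to the 95th percentile). The X medians are 3.63 for S3 over S2, 0.76 for S4 over S3 and −0.30 for P0 over F1, while the autosomal medians lie near 0 throughout.

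The MEG genes encode intrinsically disordered proteins of the embryonic P granules, and all 4 rose in S3. meg-1 (X:13927036-13929634, minus strand) had 289.7, 999.6 and 2048 in S3, against 0, 5.26 and 189 in S2, a log2 change of 4.99 ± 0.77 (adjusted p = 9.52e-06). The lowest S3 library was above the highest S2 library. meg-3 (X:1986469-1989607, minus strand) had 121, 594 and 1059 in S3 and 0, 0 and 249.7 in S2 (4.91 ± 0.96, adjusted p = 0.000226), with overlap. meg-2 and meg-4 were higher by 5.33 ± 1.04 and 4.16 ± 1.07 on the log2 scale (adjusted p = 0.000207 and 0.00404). meg-1 and meg-2, and likewise meg-3 and meg-4, are similar in sequence, so the split of reads within each pair is uncertain. The median over the 4 genes was 4.95, beside 0.04 over all genes tested. Over all tested X genes the median was 3.63 and 75.8% were higher.

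Of the 6 listed genes of sex determination and X dosage, all on X, 2 could be tested at this step. Both rose, beside 75.8% higher of all tested X genes. sdc-1 (X:16275763-16282534, plus strand), whose product acts in dosage compensation, had 11.8, 76.2 and 230.4 in S3, against 0, 0 and 6.09 in S2 (log2 change 6.32 ± 0.83, adjusted p = 3.72e-07). Every S3 library was above every S2 library. ceh-39 (X:1853874-1856172, minus strand), a homeobox gene that serves as an X signal element, had 10.4, 139.9 and 265 in S3 and 0, 0 and 74.6 in S2 (4.21 ± 0.89, adjusted p = 0.000562). Several S3 libraries of ceh-39 lay within the S2 range. sdc-2, the gene that starts dosage compensation in hermaphrodites, was at 0 in every S1 library and had a median of 49.7 in S3, but was not tested at this step.

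tra-4, for a zinc finger protein that favours female fate, had 61.3, 222 and 692 in S3, against 0, 0 and 28.9 in S2 (5.58 ± 0.74, adjusted p = 8.32e-07), with no overlap. mes-1, for a receptor tyrosine kinase-like protein needed for asymmetric division of the embryo's P lineage, had 0, 117 and 411 in S3 and 0, 0 and 8.56 in S2 (6.40 ± 0.75, adjusted p = 6.14e-08). nrde-3, a nuclear Argonaute, had 17.7, 145 and 453 in S3 and 0, 1.10 and 18.3 in S2 (4.21 ± 0.67, adjusted p = 1.2e-05). The ranges of nrde-3 touched only at their ends. sid-3, for a kinase in the import of double-stranded RNA, had 32.1, 139 and 371 in S3 against 0, 0 and 19 in S2 (5.61 ± 0.68, adjusted p = 9.83e-08), without overlap. mes-1, nrde-3 and sid-3 were named after their values were seen. ain-1, a GW182-like partner of the microRNA Argonautes, was higher by 3.63 ± 1.00 (adjusted p = 0.00731).

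Among the 7 X genes of the chromatin and synMuv list, 3 were tested and 2 were called, with a median of 3.75, beside 75.8% higher of all tested X genes. utx-1, which encodes a demethylase of histone H3, had 24.3, 108 and 426 in S3, against 0, 0 and 47.2 in S2 (5.62 ± 0.83, adjusted p = 3.74e-06). lin-15B, a synMuv gene that overlaps lin-15A on the same strand, had 38.1, 163 and 683 in S3 and 0, 1.10 and 218 in S2 (3.75 ± 1.23, adjusted p = 0.0253). In both genes the lower S3 libraries lay within the S2 range. Among 4 tested genes of Wnt and other signalling 3 rose, a share near that of all tested X genes, namely sax-3 for the Robo receptor (5.16 ± 0.63, adjusted p = 1.1e-07), daf-3 for a Smad (3.57 ± 0.71, adjusted p = 0.000236) and sdn-1 for syndecan (3.97 ± 0.78, adjusted p = 0.000199). sax-3 overlaps another gene and is uncertain on that account, and with worm as a block it turned to −0.93. eor-2, of the cell death list, and puf-9, for a PUF-family RNA-binding protein, rose by 5.12 ± 0.66 and 2.91 ± 0.62 (adjusted p = 3.24e-07 and 0.000596), and puf-9 turned to −0.24 with the block.

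Outside the lists, the largest increases among abundant X genes were those of apm-3, nra-3, F16B12.6 and tra-4, with vit-5. apm-3, for a subunit of the AP-3 adaptor, had 20.4, 232 and 769.7 in S3 and 0, 0 and 32.3 in S2 (6.24 ± 0.74, adjusted p = 1.19e-07). nra-3 had 12.0, 199.8 and 617 in S3 and 0, 0 and 19.8 in S2 (5.86 ± 0.71, adjusted p = 1.37e-07), and F16B12.6 was higher by 5.70 ± 0.83 (adjusted p = 3.85e-06). All 3 had S2 medians of 0. Across the whole X, 32 of the 375 called genes had S3 libraries that did not overlap those of S2. A pair of libraries stood apart in these genes, since the S2 library of worm 34 held the highest S2 value of 256 of the 375 genes and the S3 library of worm E the lowest S3 value of 222. Without both, 198 of the 375 did not overlap, and the test, repeated after seeing this, gave 370 higher and 4 lower with an X median of 4.56.

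Yolk genes were a separate case. vit-2 and vit-5, which encode vitellogenins made in the intestine, were called higher in S3 (5.44 ± 1.09 and 6.29 ± 1.16, adjusted p = 0.000315 and 0.000114). Yet vit-5 had 0, 18.7 and 8239 in S3 against 0, 49.5 and 325 in S2, and vit-2 had 0, 49.1 and 12998 in S3 against 0.875, 143 and 939.9 in S2. Medians of both were lower in S3, although the highest S3 libraries lay far above those of S2, and the fitted values are adjusted for batch and detection rate. The share of counts on yolk genes moved with them, at 0%, 0.00256% and 0.645% in S3 and 3.02e-05%, 0.00586% and 0.0328% in S2, while the intestinal transcription factor gene elt-2, itself on X, was at or near 0. With the block and no detection rate vit-2 turned to −1.11 and vit-5 to −0.64. The vit genes are similar in sequence to differing degrees, vit-2 also overlaps C42D8.9 on the opposite strand, and the part of carried-over intestinal RNA in these values was not tested.

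The 2 ribosomal protein genes of X rose as well. rpl-11.2 had 60.7, 193 and 956 in S3 against 4.74, 59.4 and 778 in S2 (1.74 ± 0.50, adjusted p = 0.0103), and rpl-25.1 had 10.12, 66.2 and 216 in S3 against 0, 15.4 and 85.8 in S2 (2.39 ± 0.65, adjusted p = 0.00608). Both overlapped widely, both were named after their values were seen, and with all mapped libraries rpl-25.1 turned to −0.088. The 3 genes called lower were linc-7, aqp-7 and F22H10.10. linc-7, a long non-coding RNA gene that overlaps another gene, had 16.4, 129.8 and 1919 in S3 and 32.1, 859 and 3834 in S2 (−2.28 ± 0.78, adjusted p = 0.0335). aqp-7, for an aquaporin, had nearly equal medians of 33.9 in S3 and 32.9 in S2, with a fitted change of −2.86 ± 0.94 (adjusted p = 0.0247), and F22H10.10 was lower by −1.65 ± 0.58 on the log2 scale (adjusted p = 0.0379). Both directions depended on the fit, since F22H10.10 turned to 0.71 with all mapped libraries and aqp-7 to 0.85 with worm as a block and no detection rate. aqp-7 and F22H10.10 were named after their values were seen.

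The genes that rose lay all along the chromosome. With X cut into 3 parts of equal length, 125 of 162 tested protein-coding genes in the left part (77.2%), 124 of 162 in the centre (76.5%) and 121 of 146 in the right part (82.9%) were higher in S3. In 18 windows of 1 Mb the share ran between 57.9% and 96.4%. No window was without called genes. Most of the tested X genes passed the filter only through S3, which shapes these shares too.

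Between S4 and S3, nearly all calls on X were increases, of smaller size. Of 760 tested, 150 (19.7%) were higher and 4 (0.526%) lower in S4, beside 3.69% higher and 3.96% lower of all genes tested. On the autosomes 111 of 6309 (1.76%) were higher and 276 (4.38%) lower. The median log2 fold change was 0.76 on X and −0.07 on the autosomes, and 87.0% of X genes had a value above 0, against 43.0% of autosomal ones. Here 523 of the 760 X genes passed the filter only through S3, the earlier stage, and 100 of these were higher, at a median of 0.75 over the 523. The same number of libraries was required of each stage. S4, the smaller group, could thus pass alone only with all 11 of its libraries. On the autosomes 2407 of the 6309 genes passed only through S3. With median-of-ratios factors in place of TMM the split over all genes was 280 higher and 164 lower in place of 261 and 280, while X had 158 higher and 4 lower. In batch A alone X had 201 higher and 7 lower. With worm as a block, over the 4 worms with both segments, no X gene was called with or without the detection rate, at medians of 0.55 with it and 0.80 without it.

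fox-1 (X:2445117-2459893, minus strand), which encodes an RNA-binding protein that counts as an X signal element, had 68.9, 114 and 206 in S4, against 0, 13.9 and 132 in S3 (3.26 ± 0.74, adjusted p = 0.00874). Of the 6 genes of sex and dosage control, ceh-39 rose too, by 0.76 ± 0.24 (adjusted p = 0.0437), and the other 4 were not called. Without the S3 library of worm E, ceh-39 missed the threshold (adjusted p = 0.0545). meg-4 was the MEG gene that passed, at 0.81 ± 0.23 (adjusted p = 0.0264). The median of the 4 MEG genes was 0.78, beside 0.76 over all tested X genes. nrde-3 rose by a further 1.11 ± 0.29 (adjusted p = 0.0188).

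Among the largest increases of abundant X genes were those of abl-1, cyn-8, inx-2 and tmem-184. abl-1, for the Abl tyrosine kinase, had 16.2, 215 and 331 in S4 and 0, 70.3 and 194 in S3 (2.20 ± 0.47, adjusted p = 0.00704). The gene overlaps a neighbour, and its stages overlapped. cyn-8, for a cyclophilin, had 18.5, 225 and 732 in S4 and 2.31, 76.5 and 301 in S3 (2.02 ± 0.40, adjusted p = 0.00524). inx-2, for an innexin, had 44.0, 285 and 760.3 in S4 and 5.38, 99.2 and 266 in S3 (1.75 ± 0.37, adjusted p = 0.00691). tmem-184 was higher by 1.77 ± 0.44 (adjusted p = 0.0147), and mom-1, a Porcupine-like gene needed to send Wnt signals, by 2.37 ± 0.50 (adjusted p = 0.00679). For none of the 150 genes did the S4 libraries lie clear of the S3 libraries, although every one of the 150 had a higher median in S4.

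Somatic markers moved with this step. Of 14 markers of gonadal sheath and muscle, 11 were tested and 4 were higher in S4, 2 of them X genes, mup-2 for troponin T (1.68 ± 0.46, adjusted p = 0.0235) and unc-97 (1.31 ± 0.42, adjusted p = 0.0492, and 0.0780 without the S3 library of worm E). The summed share of these markers was 0.00478%, 0.109% and 0.148% in S4 and 0.00744%, 0.048% and 0.0946% in S3. Their part in the X calls was not tested. Among the 4 lower genes, C05D9.12, a non-coding RNA gene of 129 nt, had 1.91, 38.2 and 468 in S4 against 20.8, 418 and 1937 in S3 (−2.30 ± 0.47, adjusted p = 0.00595), and the other 3 are without a symbol.

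From S4 to F2 few X genes were called. F3 against S4 gave 0 higher and 0 lower of 802 tested, beside 0.0841% higher and 1.3% lower of all genes tested. Without adjustment 66 X genes had a p under 0.05, and DESeq2 called 5 higher and 9 lower. F2 against F3 gave 0 and 0 of 848, beside 0% and 0% of all genes, with 14 X genes at an unadjusted p under 0.05 and 0 called by DESeq2. With worm as a block, over 3 worms, 16 X genes were higher and 2 lower in F2, and with the block and no detection rate 0 were called. The median log2 fold changes of X were 0.36 and −0.01, and with 6 libraries of F3 small changes may go undetected. These medians depended on the form of the test, at −0.04 and 0.20 in batch A alone and 1.80 and 0.13 with worm as a block.

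F1 against F2 gave 4 X genes higher (0.496%) and 0 lower of 807 tested, beside 0.158% higher and 0% lower of all genes tested. The filter shapes this count too, because 363 of the 807 X genes passed it only through F1, and 3 of the 4 were among them. F2, the smaller group, could pass alone only with all 13 of its libraries. Of the 185 that passed in each stage alone, 0 were called. DESeq2 called 19 higher and 0 lower, 54 X genes had an unadjusted p under 0.05, and batch A alone gave 3 higher. With worm as a block, over the 8 worms with both oocytes, 1 X gene was called (6 without the detection rate), and 1 with all mapped libraries. The 4 were ZK813.7, F54F7.3, F15G9.1 and mlck-1, of which F54F7.3 passed with the block (adjusted p = 0.00912) and with all mapped libraries (adjusted p = 0.0386).

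ZK813.7 (X:3444814-3445197, plus strand) had 1.22, 1862 and 64466 in F1, against 0, 2.73 and 136 in F2 (8.34 ± 1.63, adjusted p = 0.0408). F54F7.3 had 0, 455 and 5457 in F1 against 0, 0 and 48.7 in F2 (7.66 ± 1.44, adjusted p = 0.0402), and F15G9.1, which overlaps F15G9.2, had 0, 106 and 700.0 in F1 against 0, 0 and 26.2 in F2 (5.95 ± 1.11, adjusted p = 0.0402). mlck-1 (X:10062451-10069792, minus strand), named for a myosin light chain kinase, had 0.734, 63.1 and 151 in F1 against 0, 12.3 and 29.9 in F2 (2.82 ± 0.62, adjusted p = 0.0453). The F1 libraries spanned a wide range in each gene and overlapped those of F2. F15G9.1 and mlck-1 were named after their values were seen.

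A group of X genes with still higher levels in F1 did not pass the threshold. ule-5 (X:11883127-11884042, plus strand), a gene expressed in the uterine lumen, had 1.36, 22593 and 356297 in F1 against 0, 11.8 and 3871 in F2 (7.61 ± 1.81, adjusted p = 0.082). Y62H9A.5 (X:11882144-11882900, minus strand) had 79.6, 19026 and 462091 in F1 against 0, 35 and 3116 in F2 (7.59 ± 1.71, adjusted p = 0.0687). ZK813.3 and ZC373.2 had medians of 15644 and 11435 in F1 and of 50.8 and 21.3 in F2 (adjusted p = 0.0693 for each). These 4 genes held 0.0028%, 2.08% and 14.6% of counts in F1, against 0.000189%, 0.00326% and 0.386% in F2. Without them the median X share was 7.31% in F1 and 6.15% in F2. ule-3 and ule-5, listed as spermathecal markers, held 0.00169%, 0.984% and 4.87% of counts in F1 and 0%, 0.000683% and 0.234% in F2. The part of RNA from the neighbouring spermatheca or uterus was not tested.

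**Figure D4:**
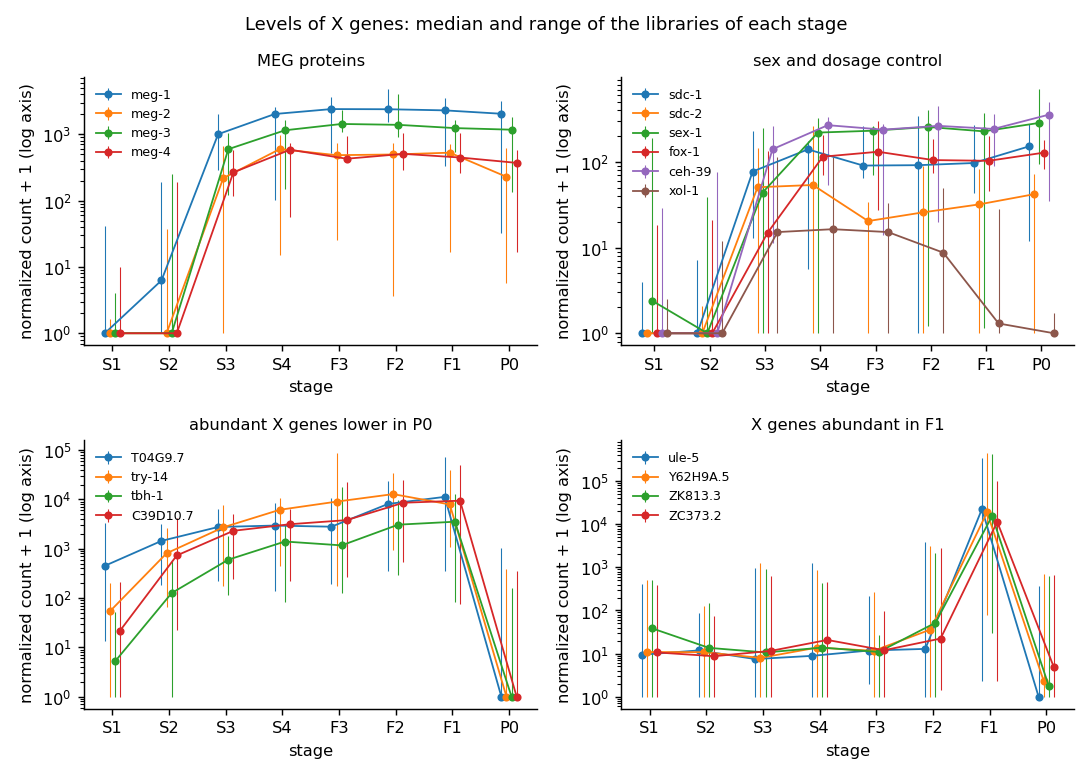
Normalized counts (plus 1, log axis) of chosen X genes at each stage, as the median (point) and the lowest to highest library (line), for MEG genes, genes of sex and dosage control, abundant genes that were lower in P0 and genes abundant in F1. meg-1 has medians of 0 in S1, 999.6 in S3 and 2031 in P0, T04G9.7 has 0 in P0 and 11243 in F1, and ule-5 has 0 in P0 and 22593 in F1.

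Between P0 and F1, nearly all calls on X were decreases. Of 944 tested, 2 (0.212%) were higher and 147 (15.6%) lower in P0, beside 0.185% higher and 5.8% lower of all genes tested. On the autosomes 12 of 6611 (0.182%) were higher and 291 (4.40%) lower. The medians were −0.30 on X and 0.02 on the autosomes. With all mapped libraries the median turned to 0.08 on X and was 0.55 on the autosomes, with 11 X genes higher and 117 lower. In batch A alone 0 X genes were higher and 146 lower. The filter again shapes the count and the medians. Of the 944 X genes, 599 passed only through F1, and 143 of the 147 lower genes were among them. On the autosomes 2288 of 6611 passed only through F1, with 282 of the 291 lower genes. P0, the smaller group, could pass alone only with all 6 of its libraries. Of the 300 X genes that passed in each stage alone, 2 were higher and 4 lower, at a median of 0.09, beside 0.16 on the autosomes. In P0, 44 of the tested X genes were at 0 in all 6 libraries. All 147 had a lower median in P0, and for 21 of them the libraries of the stages did not overlap. The mean number of X genes of all types detected was lower in P0 by 209 genes (pooled SD 175), and no worm named in the labels gave used libraries of both stages, so no comparison within worms could be made.

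Among the abundant genes that fell were several with high levels along the proximal gonad. try-14 (X:7493724-7495591, minus strand) had 0, 0 and 387 in P0, against 1098, 7881 and 40041 in F1 (−7.69 ± 1.55, adjusted p = 0.00453). tbh-1 (X:15500256-15504895, minus strand) had 0, 0 and 159.7 in P0 against 82.5, 3523 and 12754 in F1 (−7.68 ± 1.41, adjusted p = 0.00255). C39D10.7 (X:7907966-7913930, minus strand) had 0, 0 and 348 in P0 against 74.6, 9404 and 49181 in F1 (−8.04 ± 1.59, adjusted p = 0.00432). try-14 had no overlap between the stages, whereas the highest P0 libraries of tbh-1 and C39D10.7 exceeded their lowest F1 libraries. T04G9.7 (X:770837-771882, plus strand) had 0, 0 and 1046 in P0 and 352, 11243 and 72705 in F1 (−7.37 ± 1.71, adjusted p = 0.013). In the gonad the medians of try-14 were 52.7 in S1, 806 in S2, 2709 in S3, 6158 in S4, 8999 in F3, 12789 in F2 and 7881 in F1. The part of sheath cells harvested with the oocytes in the levels of these genes was not tested.

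The largest decreases among abundant X genes were larger still. ncr-1 (X:4472244-4488857, minus strand), a homolog of the cholesterol transporter NPC1, had 0, 0 and 1.96 in P0 and 36.1, 199.8 and 1355 in F1 (−10.11 ± 1.10, adjusted p = 6.93e-06). F54F7.2 had 0, 0 and 0.980 in P0 and 0, 142 and 1769.5 in F1 (−11.16 ± 2.07, adjusted p = 0.00255). The stages of ncr-1 did not overlap. C30E1.9 had 0, 0 and 9.80 in P0 and 8.32, 951 and 7157 in F1 (−9.93 ± 1.58, adjusted p = 0.000995), and C53B7.3 fell by 9.86 ± 2.20 (adjusted p = 0.0105). Y62H9A.3 (X:11879110-11879971, minus strand), which lies close to Y62H9A.5 and ule-5, had 0, 0 and 18.2 in P0 and 0, 922 and 67266 in F1 (−10.86 ± 2.99, adjusted p = 0.0377). Its similarity in sequence to them was not examined. ule-5 had 0, 0 and 368 in P0 (−9.64 ± 2.80, adjusted p = 0.0499), while its neighbour Y62H9A.5 missed the threshold (adjusted p = 0.0621).

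Most muscle and sheath genes of X were lower in P0. Of 8 on X, 7 were tested and 5 were lower, with a median of −3.06 beside −0.01 over all genes tested. act-4 (X:4960621-4964413, plus strand), an actin gene that overlaps M03F4.6, had 134, 327 and 1005 in P0 against 1055, 2488 and 9566 in F1 (−2.94 ± 0.56, adjusted p = 0.00202), without overlap. mup-2 had 0, 2.43 and 33.2 in P0 against 27.7, 146 and 791 in F1 (−4.48 ± 1.06, adjusted p = 0.0109). tni-1, for a troponin I, had 0, 0 and 2.94 in P0 against 0, 33 and 142 in F1 (−6.22 ± 1.26, adjusted p = 0.0033). unc-27, for another troponin I, and mlc-2, for a myosin light chain that overlaps C36E6.2, were lower by −3.76 ± 1.13 and −3.06 ± 0.78 on the log2 scale (adjusted p = 0.0476 and 0.0181). The other 2 tested, unc-97 and mlc-1, were not called. unc-97 had 4.61, 90.5 and 334 in P0 against 62.8, 134 and 355 in F1, and its median TPM was 20.6 in P0 and 16.3 in F1. mlc-1, which overlaps slc-17.1, had medians of 3.29 in P0 and 39.5 in F1. Over all chromosomes, 7 of 13 tested sheath and muscle markers were lower, at a median of −3.94.

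The summed share of the 14 markers did not overlap between the stages, at 0.00469%, 0.0172% and 0.0399% in P0 and 0.0762%, 0.277% and 0.672% in F1. Among defining markers, inx-8 had a median of 0 in P0, and myo-2, the pharyngeal myosin gene on X, was at or near 0 in both. By the study's account, sheath cells were harvested with the oocytes, while zygotes were collected with nothing obvious around them. A loss of RNA from the germ cell and an absence of sheath cells therefore cannot be told apart for these genes. ceh-18, a POU homeobox gene of the sheath, was at 0 in all 6 P0 libraries and had 0, 7.96 and 62.1 in F1, at least 122-fold lower in P0 by a floor of 3 counts over the group (adjusted p = 0.0163). That bound rests on the deepest P0 library, and without it the gene was at least 28.6-fold lower. aqp-7 had 0, 0 and 2.94 in P0 and 32.4, 116 and 1092 in F1 (−8.60 ± 1.16, adjusted p = 0.000112). ceh-18 was also named after its values were seen.

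Among 7 tested genes of Wnt and other signalling, 2 were lower, with a median of −0.85, beside 15.6% lower of all tested X genes and 5.8% of all genes tested. daf-12, for a nuclear hormone receptor, was at 0 in all 6 P0 libraries and had 0, 18.7 and 261 in F1, at least 431-fold lower in P0 by the same floor (adjusted p = 0.00655), or at least 101-fold without the deepest P0 library. bar-1, a beta-catenin gene that overlaps pgp-10, had 0, 0 and 0.980 in P0 and 0, 13.7 and 93.5 in F1 (−6.41 ± 1.93, adjusted p = 0.0472). rpl-11.2 had 8.60, 105 and 743 in P0 and 81.5, 494 and 9739.7 in F1 (−2.53 ± 0.69, adjusted p = 0.0289). F1 libraries of daf-12 and bar-1 reached 0, so the stages overlapped in both.

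The X genes of the germ granules and of sex control were not called in P0. No call was the usual outcome there, since 15.6% of tested X genes were lower and 0.212% higher. meg-1 had 31.9, 2031 and 3165 in P0 against 326, 2285 and 3556 in F1 (−0.10 ± 0.58, adjusted p = 0.964), and meg-3 had 132, 1168 and 1788 in P0 against 534, 1235 and 1621 in F1 (−0.06 ± 0.39, adjusted p = 0.968). meg-2 and meg-4 had changes of −0.89 ± 0.60 and −0.34 ± 0.44 (adjusted p = 0.576 and 0.83). The median of the 4 was −0.22. Of 5 tested genes of sex and dosage control none was called, with a median of 0.30, and of 7 tested chromatin and synMuv genes none was called, with a median of −0.22. sex-1, a nuclear receptor gene and X signal element, had medians of 284 in P0 and 227 in F1, and fox-1 of 127 in P0 and 102 in F1. xol-1, the switch gene of male fate, had its highest median, 15.4, in S4 and was at 0 in P0. The 2 genes called higher were fah-1 and C07D8.6. fah-1 (X:6446746-6448916, minus strand), for fumarylacetoacetase, had 169, 282 and 918 in P0 against 60.6, 212 and 624 in F1 (1.5 ± 0.44, adjusted p = 0.0387), and C07D8.6 had 1028, 1887 and 13013 in P0 against 1047, 1840.3 and 5702 in F1 (0.98 ± 0.29, adjusted p = 0.0424). Both overlapped.

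The comparisons of S3 with S2 and of P0 with F1 share no libraries, and their calls on X overlapped little. Of the 375 X genes higher in S3, all but 2 were tested in P0 against F1, where 4 were lower and 2 higher, with a median change of −0.07. The 4 genes, H29C22.1, rpl-11.2, sek-1 and ule-5, were 1.07% of the 375 and 2.72% of the 147, and H29C22.1 and sek-1 are named here for that overlap. On the autosomes 7 genes were in both lists, 1.15% of the 607 and 2.41% of the 291. The shares were thus near those of X. Only 37 of the 147 had been tested in S3 against S2, so the other 110 could not be in both lists. By position, 45 of 300 tested protein-coding genes in the left part of X (15%), 60 of 309 in the centre (19.4%) and 37 of 315 in the right part (11.7%) were lower in P0.

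**Figure D5:**
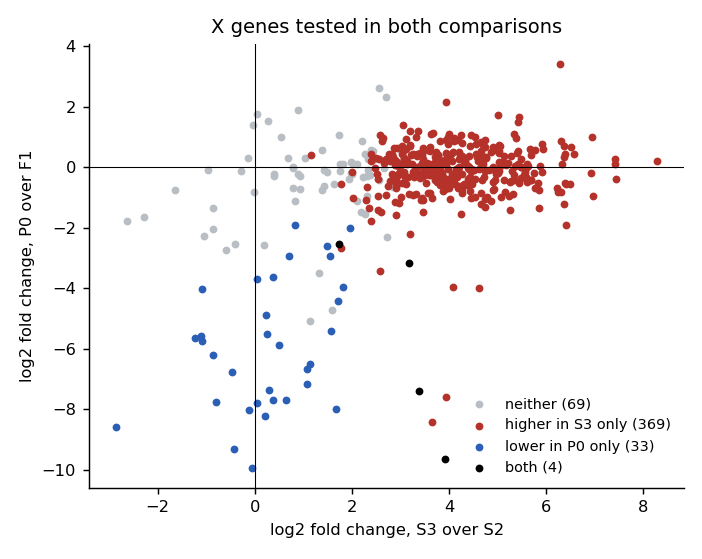
Log2 fold change of S3 over S2 (horizontal) and of P0 over F1 (vertical) for the 475 X genes tested in both, coloured by call (369 higher in S3 and not lower in P0, 33 lower in P0 and not higher in S3, 4 both, 69 neither). The genes higher in S3 lie in a band around a P0 change of −0.07, and the genes lower in P0 lie mostly at small S3 changes.

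At the level of detection, 696 X protein-coding genes had a median TPM of at least 1 in P0 and 848 in F1, and 657 were in both. Of this pair of stages, P0 alone held 39 and F1 alone 191, of which 165 were in neither S1 nor S2. F1 was the last stage of detection for 19.7% of the 969 X genes ever detected, against 7.94% of autosomal genes. The highest median TPM fell in S4 for 297 X genes (30.7%), in P0 for 267 (27.6%) and in F1 for 179 (18.5%). On the autosomes S4, P0 and F1 held the highest level of 19.9%, 35.7% and 6.35% of genes.

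Across the whole gonad, F1 against S1, 453 of 532 tested X genes (85.2%) were higher and 7 (1.32%) lower, beside 21.6% higher and 15.3% lower of all genes tested. On the autosomes 875 of 5605 (15.6%) were higher and 930 (16.6%) lower. The median log2 fold change was 6.14 on X and 0.02 on the autosomes. Over 2400 X genes without a low-count filter the X median was 2.38 with 36.6% higher, and with all mapped libraries it was 2.83. Median-of-ratios factors shifted the median of all genes tested to 0.31 in place of 0.15. The filter shapes this count as well. Of the 532 X genes, 427 passed it only through F1, and 410 of the 453 higher genes were among them. Of the 14 that passed in each stage alone, 7 were higher and 1 lower. On the autosomes 414 genes passed only through F1, and 324 of these were higher. The libraries of F1 and S1 did not overlap for 251 of the 453. With worm as a block and the detection rate kept, over 7 worms, no X gene was called at an X median of 7.79, and without the detection rate 436 were higher and 5 lower. In batch A alone 556 were higher and 12 lower. Markers of other cell types moved with this comparison. Of 9 tested sheath and muscle markers 5 were higher in F1 (act-4, inx-8, inx-9, mup-2 and unc-97, median 3.17 over the 9, with mup-2 at −0.75 under the block), and their summed share was 0.0762%, 0.277% and 0.672% in F1 and 0.00215%, 0.0144% and 0.0391% in S1. Both spermathecal markers were higher, with a median of 9.89. Their part in the X calls was not tested.

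The MEG genes were 4 of 4 higher, with a median of 9.66, beside 85.2% higher and a median of 6.14 over all tested X genes. meg-2 (X:13922643-13926129, minus strand) had 15.7, 525 and 716 in F1 against 0, 0 and 0.626 in S1 (10.69 ± 0.62, adjusted p = 2.39e-16). meg-3 had 534, 1235 and 1621 in F1 against 0, 0 and 3.09 in S1 (10.58 ± 0.49, adjusted p = 6.02e-19). Both were clear of the S1 libraries. T09B9.1, which overlaps T09B9.3, had 359.9, 664 and 1129 in F1 against 0, 0 and 1.25 in S1 (11.11 ± 0.48, adjusted p = 2.15e-19), and T23F2.5 had 197, 676 and 11934 in F1 against 0, 0 and 6.24 in S1 (10.89 ± 1.01, adjusted p = 5.2e-11). All 4 tested genes of sex and dosage control were higher, among them sex-1 with 0.151, 227 and 369.9 in F1 and 0, 1.4 and 192 in S1 (6.08 ± 1.62, adjusted p = 0.00294), which overlapped.

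The 7 lower genes were mainly short or non-coding. ZK380.6 had 51.6, 4823 and 13350.2 in F1 against 331, 34579 and 69651 in S1 (−2.00 ± 0.43, adjusted p = 0.000285), and Y40A1A.6, an ncRNA gene, had 7.34, 686 and 2989.8 in F1 against 49.7, 6006 and 16930.3 in S1 (−1.70 ± 0.44, adjusted p = 0.00225). linc-7 had 0, 15.9 and 137 in F1 and 11.7, 716 and 3509.7 in S1 (−3.97 ± 1.18, adjusted p = 0.00794). The stages overlapped in all 3, and with worm as a block ZK380.6 turned to 0.61 and Y40A1A.6 to 1.34. cab-1 had 0, 0 and 5.38 in F1 and 0, 94.8 and 1102 in S1 (−8.84 ± 1.49, adjusted p = 9.47e-06), Y73B3A.20, named after its values were seen, was lower by −3.44 ± 0.86 (adjusted p = 0.00166), and the other 2 are without a symbol.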

How the data were processed

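RNA-seq libraries of single gonad pieces, oocytes and zygotes were examined. The authors trimmed reads with Trim Galore, aligned them to WBcel235 with HISAT2 and counted them per gene with HTSeq at default settings on a WormBase annotation, and the deposited counts carry no normalization. Tool versions are not given in the sources used here. Default HTSeq counting takes a strand, so genes that overlap another are uncertain. The text marks those whose neighbour codes for protein, and ncr-1, fox-1, let-2, daf-12, cab-1, ceh-18, ain-1, sdc-2, sdn-1 and C30E1.9 overlap other annotated genes. The deposited TPM values were made by the authors with Salmon. Fractions in the quality file, such as shares of TPM on intestinal genes, are the authors' own, and that file also gives batch and whether a library was used.

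Genes were placed by the WBcel235 annotation of release 115, from which 8 counted genes were missing (0.00721% of counts). Of 146 libraries, 135 were of the 8 stages, 104 were used, and 1 stage library without a batch entered no fit. Left out of the fits were 36 mitochondrial, 22 rRNA and 275 genes tracking the msp genes (331 in all, 1 on X), and 92 spike-ins. The members, lists and tests were chosen with earlier results of these data known. Named genes were X genes of the lists, the 5 largest increases and decreases per comparison among called X genes whose mean log2 CPM reached 5, and the 5 highest mean TPM per stage, and a few others marked as named later. Not every gene that the rule names is described in the text. CPM here is the count scaled by library size, computed from the deposited counts.

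Counts were fitted with edgeR 4.0.16 (filterByExpr with a minimum count of 10, TMM, robust quasi-likelihood) in R 4.3.3, with batch and the share of genes with a count as covariates. The SE of a log2 fold change is its size over the square root of F. DESeq2 1.42.0 was an alternative. Tables were made with Python 3.11.15, numpy 2.4.6, pandas 2.3.3 and scipy 1.17.1, and the fits were tested on simulated data. Scores over X genes were given no p-value.

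Stages of one worm were paired by the worm named in the labels, which is the same animal. Deviations from the stage means correlated between stages of one worm at a median r of 0.25 for S2 and S1 (11 worms), 0.21 for S3 and S2 (9), 0.35 for S4 and S3 (4), 0.62 for F3 and S4 (3), 0.55 for F2 and F3 (3) and 0.51 for F1 and F2 (8), and at 0.00477 to 0.18 between worms, or 0.0471 to 0.29 between worms of one batch. The lowest values of a single worm were −0.12 for S2 and S1 and −0.13 for S3 and S2. The labels do not name the worm of every zygote, and p-values measure the spread between these libraries. Depth limits the weakest genes, since a gene at 0 in the shallowest library (1260459 counts) could still have a share worth up to 3 counts.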

Additional observations from a re-analysis of the deposited data

Results flagged for a closer look

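In the 2 stages with 6 libraries each, F3 and P0, 12 groups of values were tested for a library far from the others and 3 stood apart, where chance gives about 1 in 20. The F3 library of worm J had 19.96% of X protein-coding genes detected, against 27.6% to 31.9% in the other 5. The F3 library of worm 33 had 0.0187% of its counts on ule-5, Y62H9A.5, ZK813.3 and ZC373.2, against 1.82e-05% to 0.00308% in the others. P0 library 2 had 0.0845% on the same 4 genes, against 0% to 0.00106%.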

How the results depend on the processing

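Counts of X genes called are given as higher and lower in the later stage. Without a low-count filter they were 190 and 120 for S2 against S1, 732 and 59 for S3 against S2, 253 and 60 for S4 against S3, 4 and 3 for F3 against S4, 34 and 9 for F1 against F2, and 878 and 138 for F1 against S1. With all mapped libraries they were 3 and 13 for S2 against S1, 158 higher for S3 against S2, 58 higher for S4 against S3, 1 higher for F1 against F2, 11 higher for P0 against F1, and 301 and 24 for F1 against S1. DESeq2 gave 285 and 10 for S4 against S3, 5 and 9 for F3 against S4, 19 higher for F1 against F2 and 4 higher for P0 against F1. Without the detection rate there were 5 lower for S3 against S2, 67 higher for S4 against S3, 2 lower for F3 against S4, 15 higher for F1 against F2 and 13 lower for F1 against S1. Batch A alone gave 1 lower for S3 against S2, 7 lower for S4 against S3, 2 lower for F3 against S4, 0 higher for P0 against F1 and 12 lower for F1 against S1. Median-of-ratios factors and TMM from autosomal genes each gave 1 higher for P0 against F1.

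With worm as a block the counts were 4 and 14 for S2 against S1, 4 and 1 for S3 against S2, 0 and 0 for S4 against S3, 16 and 2 for F2 against F3, 1 higher for F1 against F2, and 0 and 0 for F1 against S1. With the block and no detection rate they were 10 lower for S3 against S2 and 0 and 0 for S4 against S3. No paired analysis was possible for P0 against F1 because no worm named in the labels had used libraries of both. The causes of these shifts were not tested. Leaving out each library in turn was not run, since every group had over 5.

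For the mean X share of counts, S2 minus S1 was 1.90 as a share of TPM and −1.05 with all mapped libraries, S4 minus S3 was −1.62 as a share of TPM, and in batch B F3 minus S4 was 3.81 and F2 minus F3 was −1.82. For X genes detected, a TPM of at least 5 gave 399 for S3 minus S2 and 537 for F1 minus S1, and all mapped libraries 588 for F1 minus S1. For S3 against S2 these named genes turned direction, given as log2 changes. With all mapped libraries F22H10.10 had 0.71 and rpl-25.1 −0.088. Without the detection rate F23A7.8 had −0.068. With the block F23A7.8 had −0.22, ZK813.3 −0.22, puf-9 −0.24, sax-3 −0.93 and vit-2 −0.28, and with the block and no detection rate F23A7.8 had −1.18, ZK813.3 −0.34, vit-2 −1.11, vit-5 −0.64 and aqp-7 0.85. For F1 against S1 the block gave Y40A1A.6 1.34, ZK380.6 0.61 and mup-2 −0.75, and all mapped libraries gave rpl-11.2 −1.04. Of the other values of named genes, over all settings together, 1247 kept direction and call and 221 lost the call. The settings differed widely. With worm as a block 10 values kept direction and call, 92 lost the call and 8 turned direction. With the block and no detection rate 84 kept both, 21 lost the call and 5 turned direction.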

Other observations

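Libraries outside the 8 stages entered no comparison. In 9 early embryo libraries, X genes held 2.74% to 5.75% of counts, and 6.27% to 25.2% of X protein-coding genes were detected. A pool of F2, F3 and S4 had 7.18% of its counts on X and a pool of S2 and S3 had 6.77%.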
